A study of Mus musculus and Rattus norvegicus with 26 samples.

Results

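Intronic sequence of 9 genes that encode dendritic RNA granule proteins and translation repressors is described across 6 lists: Fmr1, Fxr1, Fxr2, Stau1, Stau2, Pum2, Cpeb2, Cpeb3 and Cpeb4. The members were picked for their known roles, with earlier results of these data known, and were looked up by gene symbol. They made up 9 of the 13695 genes that stood in any list, with 8 of 12467 mouse genes and 5 of 5712 rat genes. Pum2 was in no mouse list, and Fxr1, Stau2, Cpeb2 and Cpeb3 were in no rat list.

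The study sequenced hand-dissected dendrites and single somas of primary hippocampal neurons, single cells of interscapular brown adipose tissue (BAT) and single cardiomyocytes, and listed the intronic sequence found in each. The neurons came from C57BL/6 mouse embryos (3 dendrite and 3 soma libraries) and from Sprague-Dawley rat embryos (2 dendrite and 3 soma libraries), at embryonic day 18 in each species. The 6 BAT libraries came from CD-1 mouse embryos at day 17.5, and the 9 cardiomyocyte libraries from transgenic C57BL/6 embryos at day 14.5, bred from hemizygous carriers of the Fucci cell cycle probe mAG-hGem under a CMV promoter. Library numbers follow the sample labels. All 26 libraries were made with 3 rounds of aRNA amplification, which copies RNA from a poly(T) primer.

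The unit here is the contig, a stretch of an intron covered by neighbouring reads. Each list pools the contigs of all libraries of a condition, so no value has a replicate. Each intron carries 1 read count, however many contigs it holds. Values are given as RPM, the reads in the introns of a gene per 1000000 reads of its list. Intervals are exact 95% intervals and hold counting error only. The dendrite samples were pools of many dendrites and may include axons. Somas and whole cells include the nucleus, so unspliced nuclear RNA and cytoplasmic RNA cannot be told apart in those 4 lists. The reads do not carry the strand of the RNA. Introns with a predicted gene, a known poly(A) site or only junction reads had been filtered, so an unlisted member may have been filtered, and 0 listed reads does not mean that the gene was silent. The study also describes dropping introns with known RNA families and long contigs of somas and whole cells. The lists used here still held contigs over 400 nt in those 4 conditions, so a limit of 400 nt was run as an alternative. Unlike in the study, it was applied to the dendrite lists as well.

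The protein of Fmr1, FMRP, and its relatives bind mRNAs, travel with them into dendrites and repress their translation. Staufen proteins bind double-stranded RNA and act in the transport and decay of dendritic mRNAs. Pumilio and CPEB proteins bind elements in the 3' untranslated region and hold back or release translation.

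Fixed lists of marker genes were looked up to check the labels. Of 11 neuron markers, 4 were in the mouse dendrite list (682 reads, most in Slc17a6 with 558) and 6 in the mouse soma list (56182 reads, most in Gad1 with 45716). Of the same markers, 3 were in the BAT list (14575 reads, most in Syt1 with 8127), 0 in the cardiomyocyte list, 2 in rat dendrites (352 reads, most in Gad1 with 299) and 3 in rat somas (6263 reads, most in Syt1 with 4520). Map2, Nefl, Nefm and Syn1 had 0 reads in every list. The BAT list held 7 of 9 brown adipocyte markers (156642 reads, most in Fabp4 with 78875), without Adrb3 and Ppargc1a, and the mouse dendrite, mouse soma, cardiomyocyte, rat dendrite and rat soma lists held 5, 1, 3, 1 and 1. The cardiomyocyte list held 7 of 10 cardiomyocyte markers (324098 reads, most in Ryr2 with 146224), without Gata4, Nkx2-5 and Nppa. The BAT list held 5 of these 10 (49637 reads, most in Nkx2-5 with 26804), mouse dendrites 5 (1601 reads), mouse somas 2 (19 reads), and rat dendrites and somas 1 each. Of 7 astrocyte markers the mouse dendrite list held 4 (2983 reads, most in Aldh1l1 with 2826), mouse somas 3 (264 reads), BAT cells 4 (811 reads), cardiomyocytes 0, and the rat lists 2 each (78 and 252 reads). Of 6 microglia markers, Itgam had 838 reads in mouse dendrites, 70 in mouse somas, 508 in BAT cells and 701 in rat dendrites, and 0 in cardiomyocytes and rat somas. Csf1r had 10 reads, all in mouse dendrites, and Aif1, Cd68, Cx3cr1 and P2ry12 had 0 in every list. The oligodendrocyte markers summed to 6, 2, 7, 0, 139 and 58 reads and the 6 fibroblast or endothelium markers to 137, 912, 867, 11, 319 and 2 reads, in the order mouse dendrites, somas, BAT cells, cardiomyocytes, rat dendrites, somas. By reads, neuron, brown adipocyte and cardiomyocyte markers were thus highest in the mouse soma, BAT and cardiomyocyte lists (30279, 8771 and 26563 RPM). By listing they stood out less. The BAT list held 77.8% of the brown adipocyte markers and 82.0% of all mouse genes. The cardiomyocyte list held 70.0% of the cardiomyocyte markers (49.8% of all mouse genes) and the mouse soma list 54.5% of the neuron markers (47.3%). The BAT list held cardiomyocyte and neuron markers too, and the mouse dendrite list had more RPM of cardiomyocyte markers (519) than of neuron or brown adipocyte markers (221 each). Astrocyte markers had the most RPM of the 7 marker sets in mouse dendrites (966). Microglia markers had 275 there, with 838 of 848 reads in Itgam. Astrocyte markers were found in every list but that of cardiomyocytes.

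The mouse dendrite list held 8 members, where 69.0% of all mouse genes were listed. It was the list with the most members, and only Pum2 was missing. The mouse soma list held 4 (47.3% of all mouse genes), the BAT list 7 (82.0%) and the cardiomyocyte list 6 (49.8%). Of the 5 members with a rat intron, 3 were in the rat dendrite list (78.5% of all rat genes) and 3 in the rat soma list (59.4%). Fmr1, Stau2, Cpeb2 and Cpeb3 were the members found in all 4 mouse lists. Fxr1 and Cpeb4 were found in the dendrite, BAT and cardiomyocyte lists, Stau1 in the dendrite and BAT lists, and Fxr2 in the dendrite list alone.

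Together the members had 3152 reads in 19 introns and 31 contigs in mouse dendrites, or 1021 RPM (interval 986 to 1057). In mouse somas they had 3810 reads in 13 introns and 26 contigs (2053 RPM, 1989 to 2120), in BAT cells 22750 in 26 introns and 50 contigs (1274, 1257 to 1291), and in cardiomyocytes 29708 in 21 introns and 34 contigs (2435, 2407 to 2463). The rat members had 1488 reads in 10 introns and 11 contigs of dendrites (1477, 1403 to 1554) and 1254 reads in 5 introns and 5 contigs of somas (599, 566 to 633). A few genes made up most of these sums. Cpeb2, Cpeb3 and Cpeb4 held 88.3% of the member reads in mouse dendrites, 91.8% in mouse somas, 57.4% in BAT cells and 96.7% in cardiomyocytes, and Cpeb3 alone held 66.3%, 67.4%, 45.2% and 46.9%. Pum2 held 94.8% of the member reads in rat dendrites, and Stau1 held 56.6% in rat somas.

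**Figure D1:**
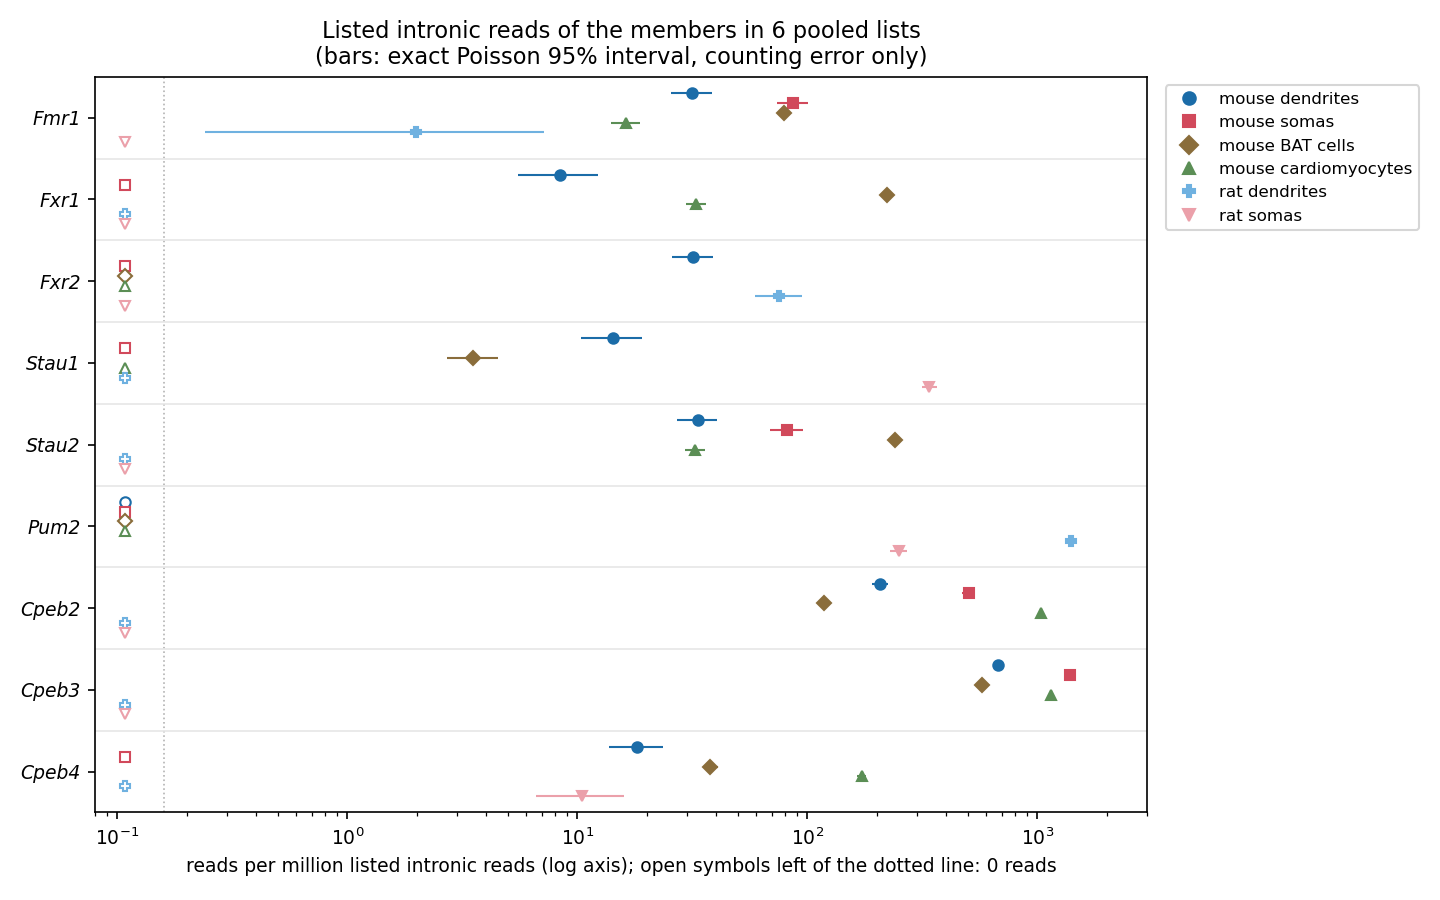
RPM of each member in the 6 lists, on a log axis, with exact Poisson 95% intervals. Open symbols left of the dotted line mark 0 reads.

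The listed introns of the members had more reads than the median listed intron in mouse. The median member intron had 54.0 reads in mouse dendrites (24.0 over all introns), 160 in mouse somas (22.0), 406 in BAT cells (29.0) and 226 in cardiomyocytes (53.0). In rat the medians were 7.50 in dendrites (14.0 over all introns) and 14.0 in somas (24.0), so the rat sums rest on 1 or 2 introns. A listed member had on average 2.38 introns in mouse dendrites (2.26 over all genes), 3.25 in somas (1.79), 3.71 in BAT cells (2.94) and 3.50 in cardiomyocytes (2.10).

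Fmr1 had 97 reads in mouse dendrites (31.4 RPM, 25.5 to 38.3), 160 in mouse somas (86.2, 73.4 to 101), 1405 in BAT cells (78.7, 74.6 to 82.9) and 198 in cardiomyocytes (16.2, 14.0 to 18.7). In rat it had 2 reads in dendrites, in intron 12, and 0 in somas. By RPM Fmr1 was thus highest in mouse somas and BAT cells, which were not apart by counting error (1.10-fold, 0.925 to 1.29), followed by dendrites and then cardiomyocytes. Per kb of contig the order differed, with 173 RPM in somas, 42.8 in dendrites, 38.7 in BAT cells and 15.3 in cardiomyocytes. Its introns differed between lists, and of 6 listed mouse introns only intron 3 was shared, by all 4 mouse lists. Intron 3 gave 57 reads in dendrites, all 160 in somas, 1264 in BAT cells and 12 in cardiomyocytes. Intron 9 was listed in dendrites alone (40 reads), introns 7 and 10 in cardiomyocytes alone (6 and 180 reads), and introns 2 and 13 in BAT cells alone (126 and 15 reads).

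The Fmr1 intron 3 contigs lay at the same place in all 4 mouse lists. Their downstream ends, taken along the gene, fell on base 65945683 in somas and in cardiomyocytes, 4 nt before it in dendrites and 277 nt past it in BAT cells. A run of 14 A on the gene strand ends at that base. The contigs overlap the last 478 nt (dendrites), 485 nt (somas), 376 nt (cardiomyocytes) and 860 nt (BAT cells) of an annotated retained-intron transcript, Fmr1-002, and run past its end by 10, 14, 14 and 291 nt. Sequence of this annotated transcript and of a longer retained intron therefore cannot be told apart here. The dendrite contig of intron 9 also ended next to such a run, with 15 A from 2 nt past its end. The ends of these 2 contigs are printed to show the runs of A, given in capitals together with the hexamer AATAAA near the end of the intron 3 contigs, on the + strand of NCBIM37 (mm9), 5' to 3'.
Fmr1 intron 3, chrX:65945624-65945723: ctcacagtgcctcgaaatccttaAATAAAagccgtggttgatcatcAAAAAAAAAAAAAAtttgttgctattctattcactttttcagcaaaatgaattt
Fmr1 intron 9, chrX:65954257-65954356: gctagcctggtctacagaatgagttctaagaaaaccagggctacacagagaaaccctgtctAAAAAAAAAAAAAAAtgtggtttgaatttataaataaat

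Fxr1 had 26 reads in mouse dendrites (8.42 RPM, 5.50 to 12.3), 3941 in BAT cells (221, 214 to 228) and 400 in cardiomyocytes (32.8, 29.6 to 36.2). It had 0 reads in mouse somas and in each rat list. By these sums Fxr1 was 6.73-fold higher in BAT cells than in cardiomyocytes (6.07 to 7.48), which rests on introns 10 and 11. All its dendrite reads were in intron 2, where BAT cells had 45 and cardiomyocytes 226. In BAT cells 2992 of the reads (75.9%) were in intron 10 and 861 in intron 11, and in cardiomyocytes 174 were in intron 10. The contigs of introns 10 and 11 overlap the last exon of Dnajc19, annotated on the opposite strand, by 310 nt in each list and by 1332 nt, so reads of Fxr1 and of Dnajc19 cannot be told apart there. Without these 2 introns, a setting chosen after seeing the data, BAT cells had 88 reads (4.93 RPM, 3.95 to 6.07) and cardiomyocytes 226 (18.5, 16.2 to 21.1). The order then turned, with BAT cells 3.76-fold below cardiomyocytes (2.93 to 4.87), while dendrites kept their 8.42 RPM. The intron 2 contigs of BAT cells and cardiomyocytes stopped 1 nt before and exactly at the edge of the next exon, and the 85 nt dendrite contig stopped 51 nt before it. The longest run of A near these ends has 4 bases. This end is printed as a place without a long run of A, on the + strand of NCBIM37, with no capitals.
Fxr1 intron 2, chr3:33939924-33940023: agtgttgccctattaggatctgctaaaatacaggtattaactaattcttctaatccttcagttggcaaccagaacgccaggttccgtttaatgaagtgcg

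Fxr2 had 98 reads in mouse dendrites (31.8 RPM, 25.8 to 38.7) and 76 in rat dendrites (75.4, 59.4 to 94.4). It had 0 reads in mouse somas, BAT cells, cardiomyocytes and rat somas. Fxr2 was the only member listed in dendrites and nowhere else, in mouse and in rat. In mouse 96 of its reads (98.0%) were in intron 2 and 2 in intron 5. In rat 57 (75.0%) were in intron 1, and introns 10, 11 and 7 had 14, 3 and 2. The listed introns thus carried different numbers in the 2 species, whose introns were not aligned here. The mouse intron 2 contig, 259 nt long, lay in an intron of 791 nt.

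The FMRP family was thus split over the lists. Per kb of annotated intron, the scale used here between genes, Fxr2 had 1.82 RPM in mouse dendrites, Fmr1 0.890 and Fxr1 0.178. In BAT cells Fxr1 had 4.68, Fmr1 2.23 and Fxr2 0, and in cardiomyocytes Fxr1 had 0.695, Fmr1 0.460 and Fxr2 0. Without introns 10 and 11, Fxr1 had 0.113 in BAT cells and 0.425 in cardiomyocytes and so came below Fmr1 in these 2 lists. In cardiomyocytes the gap to Fmr1 (0.460) was small, and no interval was computed per kb, so their order there is not settled. In mouse somas Fmr1 (2.44) was the only one.

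Stau1 had 44 reads in mouse dendrites (14.3 RPM, 10.4 to 19.1) and 63 in BAT cells (3.53, 2.71 to 4.51), and 0 in mouse somas and cardiomyocytes. In rat the picture turned, with 0 reads in dendrites and 710 in somas (339, 314 to 365). The 2 species therefore differed in which compartment listed Stau1. The mouse dendrite reads were in intron 9 (41 reads, 93.2%) and intron 3 (3 reads), those of BAT cells in intron 4, and those of rat somas in 1 contig of 550 nt in intron 2. No Stau1 intron was shared between mouse lists. The dendrite contig of intron 9, 156 nt, lay inside an exon of the annotated retained-intron transcript Stau1-009, so this transcript and other sequence of the intron cannot be told apart.

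Stau2 had 103 reads in mouse dendrites (33.4 RPM, 27.2 to 40.5), 151 in mouse somas (81.4, 68.9 to 95.4), 4289 in BAT cells (240, 233 to 247) and 396 in cardiomyocytes (32.5, 29.3 to 35.8). It had 0 reads in the rat lists. Stau2 was highest in BAT cells, then in somas, while dendrites and cardiomyocytes were not apart by counting error (1.03-fold, 0.820 to 1.28). It had 3 listed introns, and intron 7 was in all 4 mouse lists with 85, 123, 250 and 1 reads in the order dendrites, somas, BAT cells, cardiomyocytes. Intron 10 had 18 reads in dendrites, 1959 in BAT cells and 281 in cardiomyocytes, and intron 3 had 28 in somas, 2080 in BAT cells and 114 in cardiomyocytes. In intron 7 the dendrite contig of 856 nt and the soma contig of 784 nt overlapped, with downstream ends 5 nt apart and upstream ends 67 nt apart. In intron 3 the larger BAT contig, 790 nt, overlaps exons of the annotated transcripts Stau2-002, Stau2-011 and Stau2-017 by 622, 233 and 124 nt, so part of the BAT reads may be exonic. Stau2 has 289 kb of annotated intron, and per kb it was below Stau1 in mouse dendrites (0.115 and 0.315) but above it in somas (0.282 and 0), BAT cells (0.831 and 0.0780) and cardiomyocytes (0.112 and 0).

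Pum2 had 1410 reads in rat dendrites (1399 RPM, 1327 to 1474) and 522 in rat somas (249, 228 to 272), and 0 in all 4 mouse lists. With rank 119 of 4485 genes it was the leading member of the rat dendrite list. In dendrites 1378 reads (97.7%) were in 1 contig of 565 nt in intron 6, which somas did not list. In somas 520 reads (99.6%) were in 1 contig of 531 nt in intron 8, where dendrites had 12. The high values of Pum2 thus came from different introns in the 2 compartments. The remaining dendrite reads lay in introns 11, 2 and 13 (16, 2 and 2 reads), and the remaining 2 soma reads in intron 21.

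Cpeb2 had 639 reads in mouse dendrites (207 RPM, 191 to 224), 932 in mouse somas (502, 471 to 536), 2099 in BAT cells (118, 113 to 123) and 12678 in cardiomyocytes (1039, 1021 to 1057). It had 0 reads in rat. Cpeb2 was highest in cardiomyocytes, where it ranked 187 of 6205 genes, then in somas, dendrites and BAT cells, each apart from the next by counting error. Its introns were listed for 2 transcripts, NM_175937 and NM_001177379. Intron 4 of NM_001177379 led in somas (922 reads, 98.9%), BAT cells (1493 reads, 71.1%) and cardiomyocytes (7166 reads, 56.5%) and was unlisted in dendrites. Intron 5 of that transcript led in dendrites (442 reads, 69.2%) and had 4, 396 and 684 reads in somas, BAT cells and cardiomyocytes. Intron 4 of NM_175937 had 144 reads in dendrites, 204 in BAT cells and 4828 in cardiomyocytes, and intron 1 had 53 in dendrites and 6 in somas. The leading intron thus differed between dendrites and somas, while introns 5 and 1 were listed in both, with contigs that overlapped.

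At 3 places in Cpeb2, contigs of 3 mouse lists overlapped. In intron 4 of NM_175937, the contigs of dendrites, BAT cells and cardiomyocytes had downstream ends within 22 nt of each other, in or just before a run of 15 A. At the upstream place in intron 4 of NM_001177379, contigs of somas, BAT cells and cardiomyocytes ended within 23 nt, at or just before a run of 9 A. At the downstream place of that intron the ends were spread over 257 nt, and the soma contig ended next to a run of 7 A. The cardiomyocyte contig in intron 5 ended exactly at the next exon, whereas the dendrite contig of 826 nt ended 477 nt before it, 13 nt from the soma contig end. The ends at these places are printed to compare the runs of A, each longest run of the shown bases in capitals, on the + strand of NCBIM37, 5' to 3'.
Cpeb2 NM_175937 intron 4, chr5:43639614-43639713: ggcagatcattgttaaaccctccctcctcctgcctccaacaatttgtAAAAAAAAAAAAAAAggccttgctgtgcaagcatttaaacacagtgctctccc
Cpeb2 NM_001177379 intron 4, upstream place, chr5:43656260-43656359: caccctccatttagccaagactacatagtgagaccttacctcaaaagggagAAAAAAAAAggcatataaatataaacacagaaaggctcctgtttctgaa
Cpeb2 NM_001177379 intron 4, downstream place, chr5:43657628-43657727: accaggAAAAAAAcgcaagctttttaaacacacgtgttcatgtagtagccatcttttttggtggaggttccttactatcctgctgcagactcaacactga

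Cpeb3 had 2089 reads in mouse dendrites (677 RPM, 648 to 706), 2567 in mouse somas (1383, 1330 to 1438), 10278 in BAT cells (576, 564 to 587) and 13937 in cardiomyocytes (1142, 1123 to 1161). It had 0 reads in rat. Cpeb3 was the member with the most reads in every mouse list, with rank 282 of 8607 genes in dendrites, 135 of 5895 in somas, 418 of 10220 in BAT cells and 162 of 6205 in cardiomyocytes. Somas and cardiomyocytes were the higher lists, dendrites and BAT cells the lower ones, and the distance between neighbours was at most 1.69-fold (1.61 to 1.77). All 8 of its listed introns were in at least 2 mouse lists, and introns 2, 3 and 4 were in all 4. The leading intron still changed. It was intron 5 in dendrites (723 reads, 34.6%), intron 2 in somas (770 reads, 30.0%) and BAT cells (3495 reads, 34.0%), and intron 3 in cardiomyocytes (8762 reads, 62.9%).

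The upstream introns of Cpeb3 carried the dendrite reads. Introns 2, 3, 4 and 5 had 258, 628, 474 and 723 reads in dendrites and 770, 422, 12 and 499 in somas. Intron 7 had 6 reads in dendrites and 0 in somas, and introns 8, 9 and 10 had 0 in dendrites and 54, 282 and 528 in somas. BAT cells had 3495, 405, 1083, 0, 690, 516, 3272 and 817 reads in introns 2, 3, 4, 5, 7, 8, 9 and 10, and cardiomyocytes 2311, 8762, 310, 2167, 13, 58, 90 and 226. The last 3 listed introns were thus absent from the dendrite list alone. In cardiomyocytes the only intron 9 contig overlaps 196 of the 313 nt of an exon of the annotated transcript Cpeb3-002, and 1 intron 8 contig ends exactly at the edge of that exon.

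**Figure D2:**
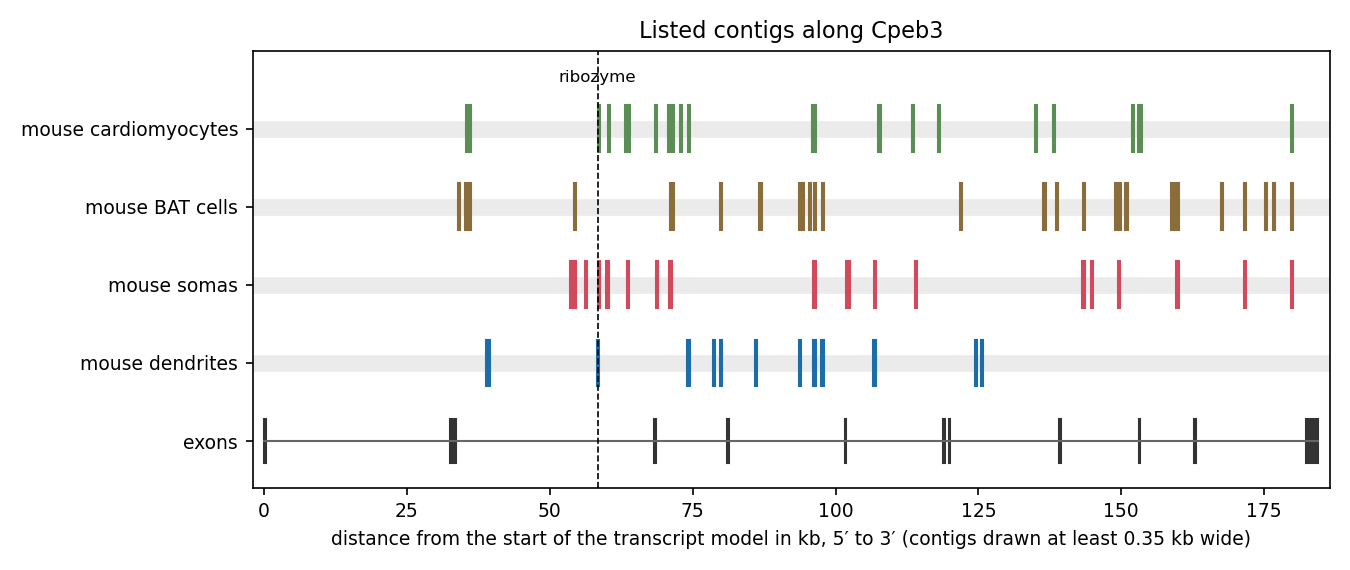
Listed contigs along Cpeb3 in the 4 mouse lists, with the exons of the GENCODE transcript matched to NM_198300 at the bottom and distance in kb from the start of the transcript model. The dashed line marks the annotated ribozyme in intron 2.

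Cpeb3 intron 2 holds a self-cleaving ribozyme, annotated over 78 nt on the - strand. It was the only entry named a ribozyme in the annotation used. Its intron was listed although introns with known RNA families were to be dropped, and 3 mouse contigs overlapped it. The dendrite contig of 230 nt covered all 78 nt. The soma contig of 247 nt began 38 nt inside the ribozyme and shared 40 nt with it, and the cardiomyocyte contig of 246 nt began 41 nt inside and shared 37 nt. These 2 contigs then ran on for 207 and 209 nt and ended within 2 nt of each other at a run of 13 A, whereas the dendrite contig ended 21 nt past the ribozyme. Reads within 500 nt of each other were joined, so a contig does not show that reads cross each base of the ribozyme, and whether the RNA was cleaved was not tested. The ribozyme is printed for its position in these contigs, in capitals with 20 flanking bases on each side, on the - strand of NCBIM37, 5' to 3'.
Cpeb3 ribozyme, chr19:37223555-37223672: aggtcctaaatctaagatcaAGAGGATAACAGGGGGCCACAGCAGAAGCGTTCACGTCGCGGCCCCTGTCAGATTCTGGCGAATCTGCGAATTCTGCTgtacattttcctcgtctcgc

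Cpeb3 held 4 places where contigs of at least 3 mouse lists overlapped. In intron 4 the contigs of all 4 lists ended within 19 nt of each other, at the end of or just before a run of 16 A. In intron 10 those of somas, BAT cells and cardiomyocytes ended within 14 nt of each other. In intron 2 soma and cardiomyocyte contigs ended at the run of 13 A and the dendrite contig 186 nt before it. In intron 3 the BAT contig stopped just before a run of 35 A, the cardiomyocyte contig ran 1 nt past that run, and the soma contig ended 398 nt before the BAT end. The upstream ends at these 4 places were spread over 172 to 407 nt in introns 2, 3 and 4 and over 86 nt in intron 10. The downstream ends in introns 2, 3 and 4 are printed for the runs of A, given in capitals, on the - strand of NCBIM37, 5' to 3'.
Cpeb3 intron 2, chr19:37223328-37223427: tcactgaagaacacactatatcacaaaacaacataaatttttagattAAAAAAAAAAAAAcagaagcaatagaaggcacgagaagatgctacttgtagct
Cpeb3 intron 3, chr19:37210175-37210274: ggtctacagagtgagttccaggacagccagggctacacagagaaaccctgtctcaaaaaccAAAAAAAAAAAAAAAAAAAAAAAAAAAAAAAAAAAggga
Cpeb3 intron 4, chr19:37185363-37185462: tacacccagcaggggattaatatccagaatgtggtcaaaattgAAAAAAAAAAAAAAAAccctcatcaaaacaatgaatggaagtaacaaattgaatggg

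Cpeb4 had 56 reads in mouse dendrites (18.1 RPM, 13.7 to 23.6), 675 in BAT cells (37.8, 35.0 to 40.8) and 2099 in cardiomyocytes (172, 165 to 180), and 0 in mouse somas. In rat it had 0 reads in dendrites and 22 in somas (10.5, 6.58 to 15.9), in introns 2 and 4. Cpeb4 thus was highest in cardiomyocytes, and as for Stau1 the listed neuronal compartment differed between mouse and rat. Intron 2 held 54 of the dendrite reads (96.4%) and 2093 of the cardiomyocyte reads (99.7%), and intron 1 held 408 of the BAT reads (60.4%). In intron 2 the 2 cardiomyocyte contigs lay downstream of the dendrite and BAT contigs, which overlapped.

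Per kb of annotated intron Cpeb2 and Cpeb3 led the members in each mouse list but that of BAT cells, where they came first only without introns 10 and 11 of Fxr1. Cpeb2 had 4.18 RPM per kb in dendrites, 10.1 in somas, 2.37 in BAT cells and 21.0 in cardiomyocytes, and Cpeb3 had 3.76, 7.69, 3.20 and 6.35. Cpeb4 had 0.318, 0, 0.662 and 3.01. The high read sum of Cpeb3 thus went with its 180 kb of intron, while Cpeb2, with 49.5 kb, was denser in 3 of the 4 lists.

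Each comparison between lists used a 2-fold rule on RPM. A gene entered when at least 1 of the lists had more than 3 reads, and counts under 3 were raised to 3. A ratio against 0 reads is therefore a bound set by this floor, and it shrinks when the floor is raised. The exact interval of 0 reads reaches 3.69 reads, above the floor, so counting error alone allows a ratio below each such bound. The comparisons of mouse somas with dendrites, BAT cells and cardiomyocytes share the soma list and are not independent. Over all genes found in the 2 lists, the median ratio was 1.20 for mouse dendrites over somas (log2 0.27, 4739 genes), 1.66 for rat dendrites over somas (0.73, 2166 genes), 1.30 for mouse somas over BAT cells (0.38, 5076 genes) and 1.42 for mouse somas over cardiomyocytes (0.50, 3700 genes). Directions were therefore also taken after scaling to these medians, after dividing by the sequenced reads of the libraries (neuronal lists only), and with only introns that have a contig of at most 400 nt. An intron kept in the last setting keeps its whole read count, even where it also holds a longer contig. In these comparisons the setting is called contigs of at most 400 nt, and the reads left are those of the kept introns.

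Between mouse dendrites and somas, 4 of the 8 members were at least 2-fold higher in dendrites (53.1% of all 8955 genes) and 4 lower (29.3%). The marker sets differed between these lists too. In RPM, dendrites and somas had 221 and 30279 for neuron, 966 and 142 for astrocyte and 275 and 37.7 for microglia markers. They had 519 and 10.2 for cardiomyocyte and 221 and 1.08 for brown adipocyte markers. Fibroblast or endothelium markers had 44.4 and 492, and oligodendrocyte markers 1.94 and 1.08. Whether this bears on the members was not tested. Fxr2 was at least 19.6-fold and Stau1 at least 8.82-fold higher in dendrites. Both kept the call in every setting, with bounds of 5.89 and 2.64 at a floor of 10 reads. Cpeb4 was at least 11.2-fold higher (3.37 at a floor of 10 reads), and Fxr1 at least 5.21-fold higher, with no call at a floor of 10 reads. Cpeb4 had no call from contigs of at most 400 nt, where 2 dendrite reads were left, since its dendrite contig in intron 2 has 626 nt. Fmr1 was 2.74-fold lower in dendrites (2.12 to 3.57), but per sequenced read it fell inside 2-fold, and with contigs of at most 400 nt it had 40 dendrite and 0 soma reads left and was at least 6.73-fold higher. Cpeb2 was 2.43-fold lower (2.19 to 2.69), was also inside 2-fold per sequenced read, and turned to 9.95-fold higher with contigs of at most 400 nt (197 and 10 reads left). Stau2 was 2.44-fold lower (1.89 to 3.16) and lost the call in each of these settings. Cpeb3 was 2.04-fold lower (1.93 to 2.17), lost the call per sequenced read and moved to 3.30-fold lower with contigs of at most 400 nt. Per sequenced read 4 members were higher (57.0% of all genes) and 0 lower (25.4%). Under the 2-fold rule only Fxr2 and Stau1 thus kept their call under every other setting, while the call of the other 6 was lost or turned in at least 1.

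The covered length differed as well. Fmr1 contigs covered 735 nt in dendrites and 499 nt in somas (42.8 and 173 RPM per kb of contig), and Stau2 contigs 1736 and 1225 nt (19.2 and 66.4). Cpeb2 contigs covered 2074 and 2819 nt (99.8 and 178), and Cpeb3 contigs 4321 and 6928 nt (157 and 200). Per kb of contig these 4 members were thus all lower in dendrites too, Cpeb3 by the least.

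**Figure D3:**
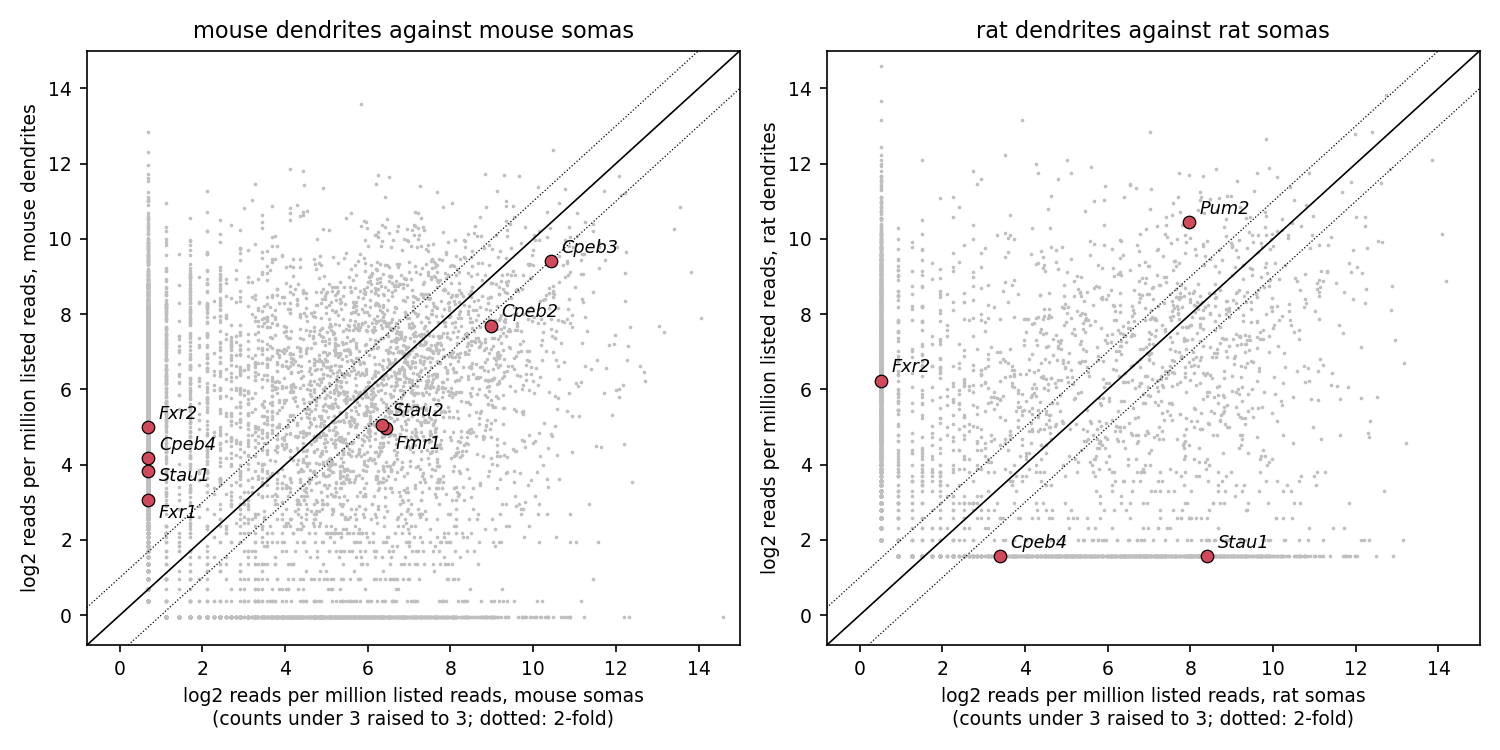
RPM (log2) in dendrites against somas, mouse on the left and rat on the right, with all genes in grey and the members in red. Counts under 3 were raised to 3, and dotted lines mark 2-fold.

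Between rat dendrites and somas, 2 of 4 members were at least 2-fold higher in dendrites (57.1% of all 4982 genes) and 2 lower (28.9%). Fxr2 was at least 52.7-fold higher and Pum2 5.62-fold higher (5.08 to 6.22), and after scaling to the median these were 31.7 and 3.38. At a floor of 10 reads Fxr2 was at least 15.8-fold higher. With contigs of at most 400 nt the bounds were 2.64 and 16.9, from few reads (5 and 0 for Fxr2, 32 and 2 for Pum2). Pum2 contigs covered 1635 nt in dendrites and 764 nt in somas (856 and 326 RPM per kb of contig). Stau1 was at least 114-fold lower in rat dendrites, with no call from contigs of at most 400 nt, since its only contig is longer, and the bound was 189 after scaling to the median and 34.2 at a floor of 10 reads. Cpeb4 was at least 3.53-fold lower (5.87 after scaling to the median) and lost the call with contigs of at most 400 nt and at a floor of 10 reads. Fxr2 was the member with the same direction in mouse and rat, and Stau1 and Cpeb4 had opposite directions. Over all 2264 genes called in both species, a count added after seeing the data, 999 had opposite directions (44.1%). Fmr1, with 2 reads, was not compared.

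Between mouse somas and BAT cells, 2 of 7 members were higher in somas (37.1% of all 10190 genes) and 4 lower (43.3%). Cpeb2 was 4.27-fold higher in somas (3.95 to 4.62) but turned to 6.97-fold lower with contigs of at most 400 nt (10 and 606 reads left), and its contigs covered 2819 nt in somas and 3040 nt in BAT cells (178 and 38.7 per kb of contig). Cpeb3 was 2.40-fold higher (2.30 to 2.51), inside 2-fold after scaling to the median, with 6928 and 9741 nt covered (200 and 59.1). Fxr1 was at least 136-fold lower in somas, with no call from contigs of at most 400 nt, and at least 3.05-fold lower without introns 10 and 11. Cpeb4 was at least 23.4-fold lower and kept the call in every setting, with a soma to BAT ratio of 0.0428 that rose to 0.143 at a floor of 10 reads. Stau2 was 2.95-fold lower (2.51 to 3.49), or 17.6-fold with contigs of at most 400 nt (28 and 4289 reads left), with 1225 and 2719 nt covered (66.4 and 88.3). Stau1 was at least 2.18-fold lower at the floor of 3 reads. This call was lost at a floor of 10 reads and with contigs of at most 400 nt. The Stau1 interval in somas reaches 1.99 RPM, against 3.53 RPM in BAT cells. These values lie inside 2-fold, so counting error leaves this call unsettled. Cpeb2 and Cpeb3 thus stood on the soma side and the other called members on the BAT side.

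Between mouse somas and cardiomyocytes, 2 of 6 members were higher in somas (49.7% of all 7523 genes) and 3 lower (34.9%). Fmr1 was 5.31-fold higher in somas (4.29 to 6.58), inside 2-fold with contigs of at most 400 nt, with 499 and 1058 nt covered (173 and 15.3 per kb of contig). Stau2 was 2.51-fold higher (2.06 to 3.03), inside 2-fold after scaling to the median and at least 49.1-fold higher with contigs of at most 400 nt, where 28 soma reads stood against 1, with 1225 and 1227 nt covered (66.4 and 26.5). Cpeb4 was at least 106-fold and Fxr1 at least 20.3-fold lower in somas, each with no call from contigs of at most 400 nt, and Fxr1 at least 11.5-fold lower without introns 10 and 11. Cpeb2 was 2.07-fold lower (1.94 to 2.21), or 91.8-fold with contigs of at most 400 nt (10 and 4828 reads left), with 2819 and 3363 nt covered (178 and 309), and Cpeb3 was inside 2-fold (1.21-fold higher, 1.16 to 1.26). The order of the members therefore changed with the cell type compared, and only Fxr1 and Cpeb4 were lower in somas than in BAT cells and in cardiomyocytes alike.

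The mouse members had 35 listed introns, and 21 of them (60.0%) were in at least 2 mouse lists, where 39.5% of all introns were. All 4 mouse lists held 6 of them (17.1%, and 3.70% of all introns). Among introns with at least 16 reads this fell to 2 (7.14%, and 1.89%), and with contigs of at most 400 nt also to 2 (7.14%, and 1.62%). In 17 of the 21 shared introns, contigs of different lists overlapped (81.0%, and 64.5% of all shared introns). With contigs of at most 400 nt the relation turned, with 5 of 14 (35.7%, and 46.0%). The sharing was uneven among members. All 8 introns of Cpeb3 and all 3 each of Cpeb4 and Stau2 were shared, and 4 of 5 in Cpeb2, but only 2 of 5 in Fxr1, 1 of 6 in Fmr1 and 0 in Fxr2 and Stau1. Dendrites and somas had 8 member introns in common, 42.1% of the dendrite and 61.5% of the soma introns (25.9% and 47.8% over all introns). Dendrites had 12 in common with BAT cells, 63.2% of the dendrite and 46.2% of the BAT introns (48.6% and 31.6%). They also had 12 in common with cardiomyocytes, 63.2% and 57.1% (24.0% and 35.9%). Somas and BAT cells had 11 in common, and BAT cells and cardiomyocytes 18. Somas and cardiomyocytes had 12 in common, 92.3% of the soma and 57.1% of the cardiomyocyte introns (32.9% and 26.6% over all introns).

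**Figure D4:**
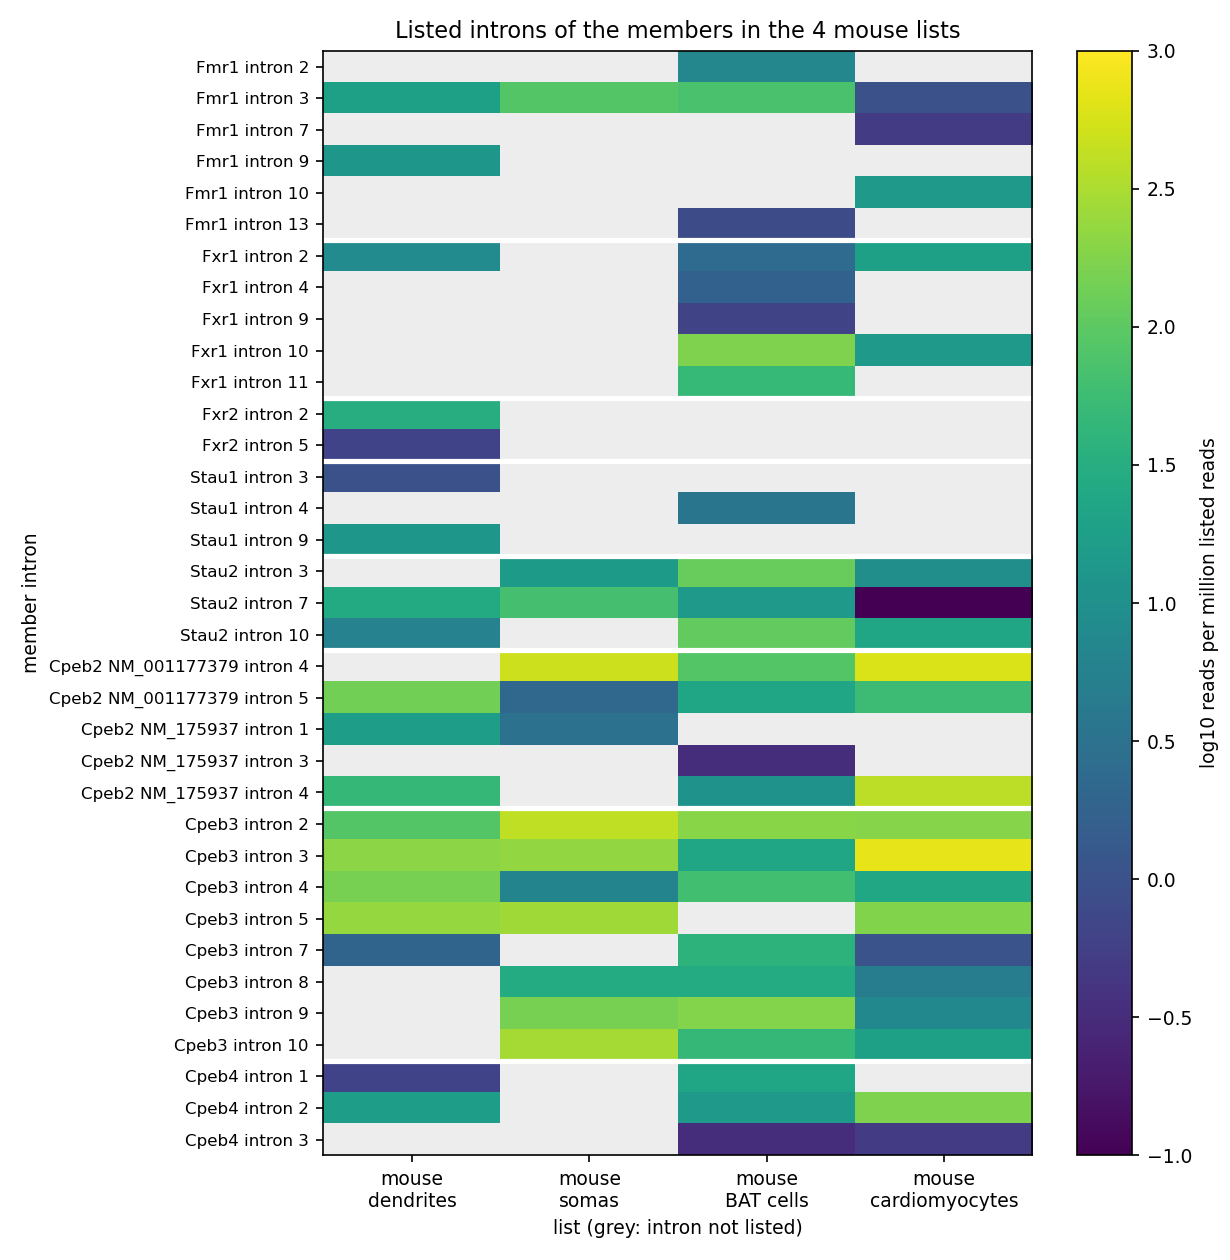
Listed introns of the members in the 4 mouse lists, colored by log10 RPM. Grey marks introns that are not listed.

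Features of the 141 mouse member contigs were set beside those of all mouse contigs. Their median length was 335 nt (269 nt over all contigs), their median GC content 39.2% (41.2%) and their median midpoint 62.1% of the way through the intron (50.0%). An annotated exon, the ribozyme included, overlapped 13 of them (9.22%, and 7.78% of all 97721 contigs), in Fmr1, Fxr1, Stau1, Stau2 and Cpeb3. Edges were taken in the shortest annotated intron of the same number that held the contig, over all transcripts of the gene. At the upstream edge 2 of the 141 began (12.1% of all contigs), and at the downstream edge 7 ended (14.3%). Those 7 were contigs of Fxr1, Fmr1, Cpeb2 and Cpeb3. The member contigs thus mostly began and ended inside the intron.

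Of the remaining comparisons of contig ends and bases, only the count of downstream runs of A was planned, and the others were chosen after the data had been seen. Among 52 overlapping pairs of member contigs from different mouse lists, the downstream ends lay within 20 nt of each other in 24 (46.2%, and 37.8% over all genes) and the upstream ends in 6 (11.5%, and 26.8%). Leaving out pairs that both ended at the intron edge, the downstream ends were close in 23 of 51 (45.1%, and 24.3% over all genes). The upstream ends were close in 6 of 52 (11.5%, and 16.3%). The median distance was 21.5 nt downstream and 170 nt upstream in members, and 54.0 and 113 nt over all genes. Most member pairs were of Cpeb2 and Cpeb3, and a place shared by several lists gave several pairs, so the pairs are not independent. In these pairs the downstream end was the more constant end, as it was over all genes.

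A run of at least 10 A on the gene strand lay within 300 nt downstream of 16 of the 141 member contigs (11.3%, and 9.36% of all contigs) and upstream of 3 (2.13%, and 2.61%). The same run on the opposite strand, written as at least 10 T, was found downstream of 4 (2.84%) and upstream of 12 (8.51%), and in 4186 and 9778 of the 97721 contigs in all. The hexamer AATAAA was in the last 50 nt of 15 member contigs (10.6%, and 8.89% of all contigs), and its reverse complement TTTATT in 5 (3.55%, and 4.93%). Member contigs were close to all contigs in each of these shares.

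Runs of A were also looked up at the places that several lists shared. Contigs of at least 3 mouse lists overlapped at 9 places in the members and at 2832 places over all genes. A run of at least 10 A lay within 50 nt of the median downstream end at 5 of the 9, and at 22.5% of all places. At the upstream end it was 0 of the 9 and 0.953% of all places. The 5 places were Fmr1 intron 3, intron 4 of Cpeb2 transcript NM_175937 and Cpeb3 introns 2, 3 and 4. Whether the poly(T) primer bound at these runs was not tested, and repeats in the printed bases were not annotated here.

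**Figure D5:**
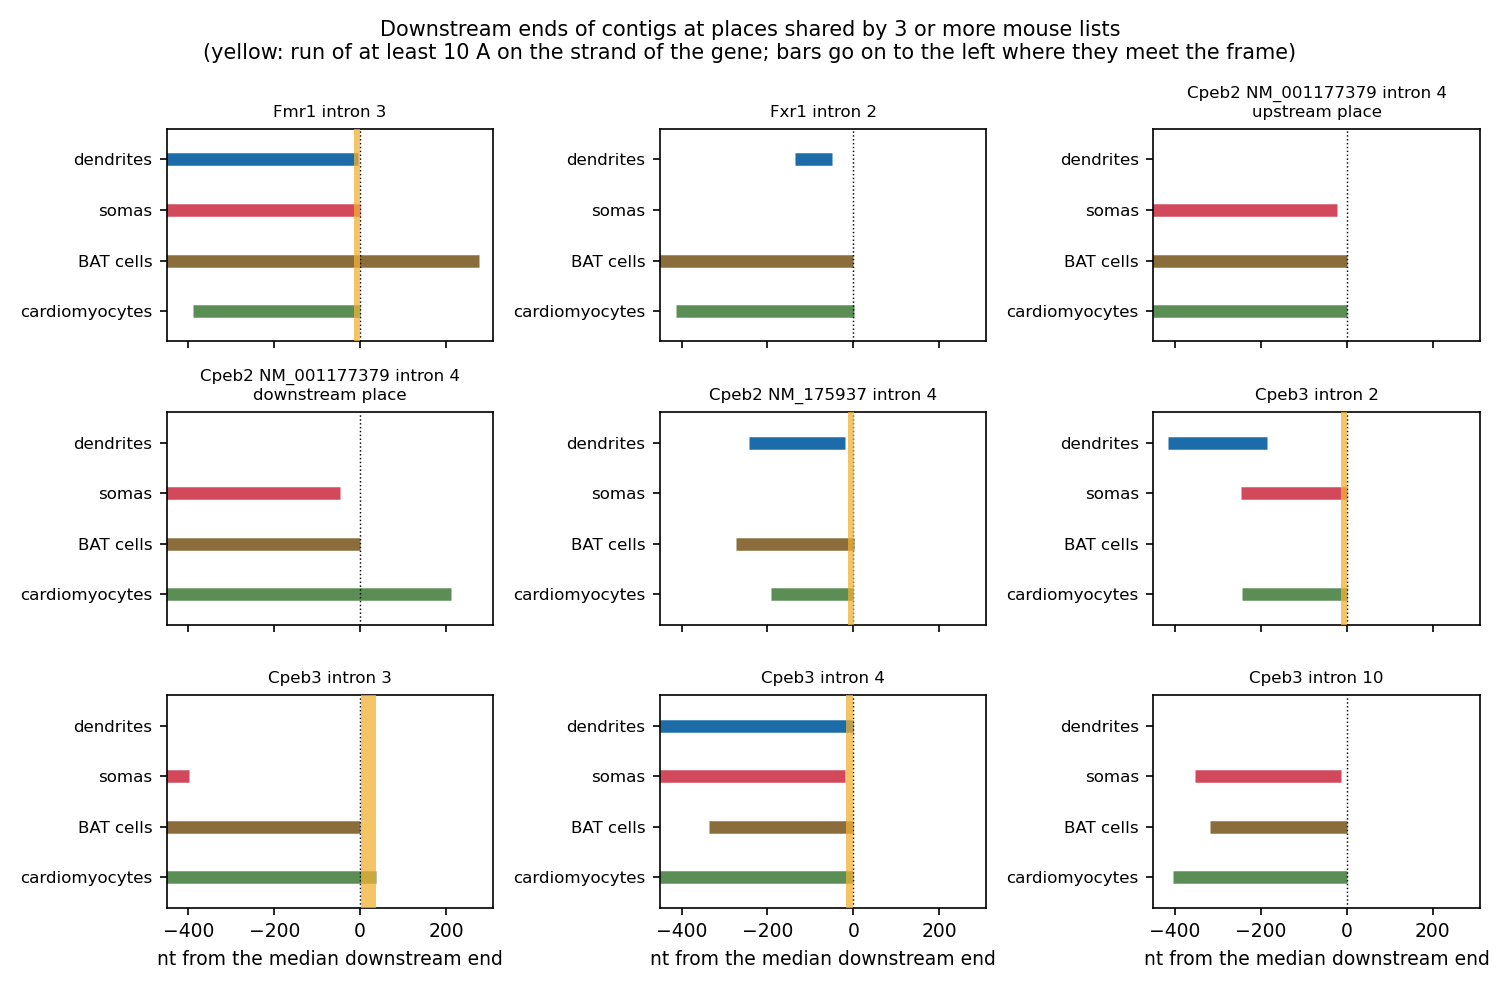
Contigs at the 9 places of the members shared by at least 3 mouse lists, in nt from the median downstream end. Yellow marks runs of at least 10 A on the gene strand, and bars that meet the frame go on to the left.

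Lists of 104 other genes of these pathways held 64 listed genes in mouse dendrites, 61 in somas, 75 in BAT cells, 54 in cardiomyocytes, 48 in rat dendrites and 44 in rat somas. These were 61.5%, 58.7%, 72.1%, 51.9%, 46.2% and 42.3% of the 104, where 69.0%, 47.3%, 82.0%, 49.8%, 78.5% and 59.4% of the genes in any list of the species were listed. The 104 also count genes found in no list. Their counts are given in that order of lists. Of 8 FMRP partners 5, 5, 8, 5, 4 and 4 were listed, and Eif4e had 1515, 0, 551, 6310, 0 and 0 reads. Nufip2 had 994, 7, 652, 49, 0 and 0, Caprin1 had 48, 74, 1783, 0, 1082 and 2, and Cyfip1 had 0, 2, 4401, 146, 344 and 8260. Eif4e and Nufip2, like Fxr1, Fxr2, Stau1 and Cpeb4, were listed in mouse dendrites with few or no reads in mouse somas. This was common, since 8607 genes were in the mouse dendrite list and only 4739 of all genes were in both lists. Both partners were also named for their high dendrite reads. Of 14 transport granule genes 7, 8, 9, 9, 9 and 8 were listed. Igf2bp3 had 759, 413, 26519, 12062, 0 and 0 reads, Kif5b 90, 268, 8245, 3749, 252 and 50, and Kif5c 84, 48, 5623, 2, 159 and 128. Zc3h14, named for its rat dendrite reads, was under this symbol listed in rat only, like Pum2 (3492 in dendrites and 72 in somas). Listing in rat only was not rare, as only 12467 of the 13695 genes in any list were in a mouse list, while 5712 were in a rat list.

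Of 14 stress granule genes 9, 9, 12, 7, 9 and 8 were listed. Tial1 had 706, 4, 72, 70, 3 and 1154 reads, and like Stau1 it was listed mainly in mouse dendrites and rat somas among the neuronal lists. Of all 2264 genes called in both species, 442 were higher in mouse dendrites and lower in rat dendrites than in somas. Atxn2 had 132, 172, 11737, 1972, 0 and 0, Elavl1 116, 174, 5169, 31, 0 and 0, Usp10 42, 0, 2, 0, 333 and 4, and Pabpc1 2, 7, 1093, 3393, 173 and 198. Of 20 P-body and RISC genes 16, 13, 16, 14, 7 and 6 were listed. Tnrc6c had 605, 1261, 186, 1786, 0 and 0 reads, Ago2 588, 0, 19, 523, 0 and 3, Ago3 525, 352, 951, 900, 0 and 0, Lsm14a 64, 0, 1466, 0, 118 and 773, and Dcp1a 4, 8, 0, 3234, 11 and 6. Of 24 CPEB and Pumilio partners 15, 13, 14, 11, 7 and 8 were listed. Cpeb1, the relative of Cpeb2, Cpeb3 and Cpeb4, had 0, 38, 499, 4198, 125 and 2598 reads, and so unlike them it was listed in rat dendrites. Whether the rat annotation of the lists held Cpeb2 and Cpeb3 was not checked. Cnot7 had 1373, 1023, 6121, 2982, 6 and 0, Cnot6 529, 206, 7532, 4890, 2 and 0, and Cnot6l 210, 187, 1722, 0, 303 and 402. Of 24 dendritic mRNAs 12, 13, 16, 8, 12 and 10 were listed, with Itpr1 at 1618, 1591, 898, 3008, 174 and 295 reads, App at 1343, 1218, 9690, 10207, 358 and 4638, Camk2a at 515, 446, 1, 4505, 0 and 0, and Gria2 at 2, 144, 2, 0, 299 and 2284. Map2, Arc, Bdnf and Ddn were in none.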

How the data were processed

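Each value starts from a count, the raw and unnormalized reads of an intron, in lists that were deposited by the authors with the libraries of a condition pooled. The authors amplified the RNA 3 times, aligned the reads, kept uniquely mapped reads in introns, filtered introns and joined reads within 500 nt into contigs. The submitters' processing notes name the builds mm9 for mouse and rn4 for rat. A count is repeated on every contig of its intron and was used once per transcript and intron. Start positions were counted from 0 and shifted by 1. The stop column was read as counted from 0 and included, because contigs then end exactly on exon edges.

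Contigs were assigned to a member by gene symbol, and the 9 members and 6 lists were chosen with earlier results of these data known. The genes named beside the members are the 3 with the most reads in mouse dendrites and the 2 with the most in rat dendrites of each pathway list, so their dendrite values were picked to be high. A gene of the CPEB and Pumilio partner list was left out after the results were seen, for a reason other than its values, and the counts of that list and of all pathway lists leave it out. Mouse introns, exons and bases were taken from the GENCODE annotation and sequence of NCBIM37. The intron length of a gene is that of a GENCODE transcript matched to its RefSeq transcript, for Cpeb2 the longer of 2. The match was the transcript that held the most listed contigs in introns of the same number. Ties went to protein-coding transcripts and then to the longest introns in sum. Tables were handled in Python 3.11.15 using numpy 2.4.6 and pandas 2.3.3, bases with pysam 0.24.0, intervals were computed with scipy 1.17.1, and figures drawn with matplotlib 3.10.9. The 2-fold rule was checked on simulated data with planted differences, but no value of that check is given here and no result rests on it.

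Alternatives were median scaling, division by sequenced reads, a 4-fold rule, a floor of 10 reads, contigs of at most 400 nt, introns with at least 16 reads, runs of at least 8 A and a window of 100 nt. The comparisons of contig ends (20 nt, with 50 nt as the alternative), of intron edges, of the hexamer AATAAA and of shared places, the ribozyme, the printed sequences, the values of Fxr1 without introns 10 and 11 and the count of genes with opposite directions in the 2 species were chosen after seeing the data. Rat sequence and intron lengths were not analysed here, nor were single libraries. Whether the rat annotation held the members that no rat list held was not checked.

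The study counts fewer BAT cells and cardiomyocytes than there are labelled libraries, so these 2 lists may pool fewer libraries than their labels name. Libraries are pooled in each list, so no value has an error between animals or cells, and age and tissue differ together between neurons, BAT cells and cardiomyocytes and cannot be told apart. Handling differs with them, since the study grew the neurons in culture, plated the BAT cells and flow sorted fresh cardiomyocytes. For BAT cells the strain differs as well, and the cardiomyocytes carry a transgene. Sequencing depth was used for the neuronal lists only. Many member values rest on 1 intron, and reads copied by amplification are not independent, so the intervals are too narrow. Listed intronic reads are not a measure of mRNA or protein level.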

Additional observations from a re-analysis of the deposited data

Results flagged for a closer look

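For 2 members the compartment with listed reads differed between the species. Stau1 was at least 8.82-fold higher in mouse dendrites than in mouse somas (44 and 0 reads) and at least 114-fold lower in rat dendrites than in rat somas (0 and 710 reads). Cpeb4 was at least 11.2-fold higher in mouse dendrites than in mouse somas (56 and 0 reads) and at least 3.53-fold lower in rat dendrites than in rat somas (0 and 22 reads). For Stau1 the listed introns had other numbers, 3 and 9 in mouse dendrites and 2 in rat somas. For Cpeb4 intron 2 led in both, with 54 reads in mouse dendrites and 14 in rat somas, and introns were not aligned between the species. With contigs of at most 400 nt, mouse Cpeb4 and rat Stau1 had too few reads for a call and rat Cpeb4 was inside 2-fold, and at a floor of 10 reads rat Cpeb4 was inside 2-fold too (ratio 0.945). Of all 2264 genes called in both species, 44.1% had opposite directions. The bounds given first for each gene hold at the floor of 3 reads, and the exact interval of 0 reads reaches above that floor. The difference between the species was not tested, since each list pools its libraries.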

How the results depend on the processing

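Of the values under other settings, 3 turned direction, 17 moved, 4 sums changed with their unit, and 45 changed by a smaller factor than these or not at all. Among the 45, member introns of mouse dendrites fell from 19 to 15 and shared introns from 21 to 14, both with contigs of at most 400 nt. Members listed in cardiomyocytes fell from 6 to 4 in that setting, and close downstream ends rose from 24 to 34 at 50 nt. With contigs of at most 400 nt, member introns fell from 13 to 8 in mouse somas, from 26 to 17 in BAT cells, from 21 to 10 in cardiomyocytes and from 5 to 2 in rat somas. With at least 16 reads they fell from 10 to 3 in rat dendrites and from 5 to 2 in rat somas. Per 1000000 sequenced reads, the member sums were 52.3 in mouse dendrites, 75.6 in mouse somas, 27.7 in rat dendrites and 15.3 in rat somas. Under a 4-fold rule the called members fell from 8 to 4 between mouse dendrites and somas, from 6 to 3 between somas and BAT cells and from 5 to 3 between somas and cardiomyocytes. Of all genes, 43.5% were then higher and 21.8% lower in the first comparison (53.1% and 29.3% at 2-fold). In the second it was 27.9% and 33.8% (37.1% and 43.3%), and in the third 42.9% and 28.1% (49.7% and 34.9%). On the scale of sequenced reads, 4 were called between mouse dendrites and somas. With contigs of at most 400 nt, 6 were called between mouse dendrites and somas and 4 between somas and BAT cells, each with directions turned (Fmr1, which had 0 soma reads left, and Cpeb2, and Cpeb2), 2 between rat dendrites and somas and 2 between somas and cardiomyocytes. Of all genes, 50.3% were then higher and 28.8% lower in mouse dendrites than in somas, and 41.1% and 37.7% in somas than in BAT cells. It was 59.5% and 24.9% for rat dendrites against somas, and 52.3% and 31.3% for mouse somas against cardiomyocytes. Shared introns with overlapping contigs fell from 17 to 5 with contigs of at most 400 nt, member contigs with a downstream run of A rose from 16 to 25 with runs of at least 8 A, and close upstream ends rose from 6 to 10 at 50 nt. With 8 A the member share was 17.7% and that of all contigs 14.1%. At 50 nt, 10 of 52 member pairs and 7853 of 21123 pairs over all genes had close upstream ends. Without introns 10 and 11, chosen after seeing the data, the Fxr1 ratio of BAT cells to cardiomyocytes turned from 6.73 to 0.266. The cause was not tested. No paired analysis was possible because the lists pool their libraries, and for the same reason no library could be left out.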

Other observations

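For each member, the gene with the most similar reads over the 6 lists was sought by the distance between log2 values of RPM plus 1. Only the 3155 genes listed in at least 4 lists and in each species could be named. Most members would not pass this filter. Fxr1, Stau2, Cpeb2 and Cpeb3 were in no rat list, Pum2 was in no mouse list, and Fxr2 and Stau1 were in fewer than 4 lists. Genes absent from the same lists as these members could therefore be left out, and the nearest genes hold within the filter only. The nearest genes were Slc28a1 for Fmr1 (distance 1.99), Jak2 for Fxr1 (2.58), Ankrd29 for Fxr2 (1.44), Sephs1 for Stau1 (1.32), Cops3 for Stau2 (2.33), Sdc2 for Pum2 (1.07), Nfib for Cpeb2 (1.95), Erbb4 for Cpeb3 (2.89) and Kpna4 for Cpeb4 (1.27). Fmr1 was the second nearest gene to Stau2 (2.44). Sephs1 had 46, 0, 52, 12, 0 and 1286 reads in mouse dendrites, somas, BAT cells, cardiomyocytes, rat dendrites and somas.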
